A study of Mus musculus with 13 samples.

Results

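The laminin and integrin genes of the mouse sciatic nerve were followed across nerve injury and deletion of Raptor. All protein-coding genes of the deposited table that encode a laminin chain (Lama, Lamb or Lamc with a number from 1 to 5) or an integrin subunit (any Itga, or Itgb with a number from 1 to 8) were taken, which gave 37 of 40787 genes. They comprise 11 laminin chains, 18 integrin alpha subunits and 8 integrin beta subunits. Of the 37 genes, 33 held 50 or more counts in at least 2 of the 13 libraries, namely 10 laminins, 16 alpha subunits and 7 beta subunits, and ratios are given for these only.

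Laminins are secreted trimers of 1 alpha, 1 beta and 1 gamma chain, and they form the sheet of the basal lamina that surrounds every axon-Schwann cell (SC) unit, the perineurial cells and the blood vessels. Integrins are heterodimers of an alpha and a beta subunit that span the cell membrane and tie the basal lamina and other matrix to the cytoskeleton. SCs need laminin and its receptors, both integrins and dystroglycan, to sort axons and to myelinate. Other integrins serve leukocytes, platelets, vessels and fibroblasts, all of which are present in a whole nerve.

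The libraries were made from sciatic nerves of C57BL/6 mice collected 5 d after a unilateral crush (5 days post crush [dpc]), with the crushed nerve taken distal to the lesion and the uninjured nerve of the other side as contralateral nerve. RaptorKO mice were homozygous for floxed Rptor alleles, which encode the mTORC1 subunit Raptor, and carried a Cre transgene for tamoxifen-dependent recombination in SCs. Control mice were homozygous for the floxed alleles too but lacked Cre, and both genotypes received tamoxifen at 2 months of age and surgery 2 months after the last injection. The epineurium was removed mechanically, so that the RNA is that of all remaining cell types of the nerve and not of SCs alone. The groups were control contralateral nerves (n = 3), RaptorKO contralateral nerves (n = 4), control injured nerves (n = 3) and RaptorKO injured nerves (n = 3). The labels do not say whether an injured and a contralateral library with the same number came from 1 mouse. In such bulk libraries, fewer cells of a type and less RNA per cell cannot be told apart.

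Each library held between 8200458 and 13581775 counts. Levels are given as CPM, that is counts scaled to a common library total, after scaling of all 13 libraries together with TMM factors. A gene was called when its adjusted p from edgeR's quasi-likelihood test was under 0.05 and its fold change over 1.2, and fold changes are on the log2 scale with their standard error. Rptor measured 43.9 to 52.7 CPM in control contralateral and 22.1 to 28.2 CPM in RaptorKO contralateral nerves, and 35.2 to 48.8 CPM in control injured and 23.3 to 28.8 CPM in RaptorKO injured nerves, so all libraries lay on the side of their labels. Both libraries of control replicate 3 held 14462 and 15017 counts of Xist and 10 and 20 counts of 4 Y-linked genes, against 4 to 17 and 1456 to 2338 counts in the other 11 libraries. The labels give no sex, and calls that end without control replicate 3 are named below.

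SC markers were abundant in all libraries, with a summed level of 38487 to 43179 CPM over 8 genes in control contralateral nerves, 31469.5 to 39776 CPM in RaptorKO contralateral nerves, 4178 to 4779 CPM in control injured nerves and 2990.4 to 3720.0 CPM in RaptorKO injured nerves. Markers of several blood cells were low. The sum of 6 neutrophil markers did not exceed 4.23 CPM in any library, with Ly6g and Camp at 0 or near 0, that of 4 B cell markers did not exceed 3.75 CPM, and that of 7 T and NK cell markers did not exceed 25.04 CPM. The sum of 5 skeletal muscle markers lay between 0.803 and 26.1 CPM and that of 5 adipocyte markers between 1.53 and 414 CPM. The highest adipocyte value was that of RaptorKO contralateral replicate 3, which also had the highest sum of perineurial markers (784 CPM, against 125 to 519 CPM elsewhere).

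**Figure D1:**
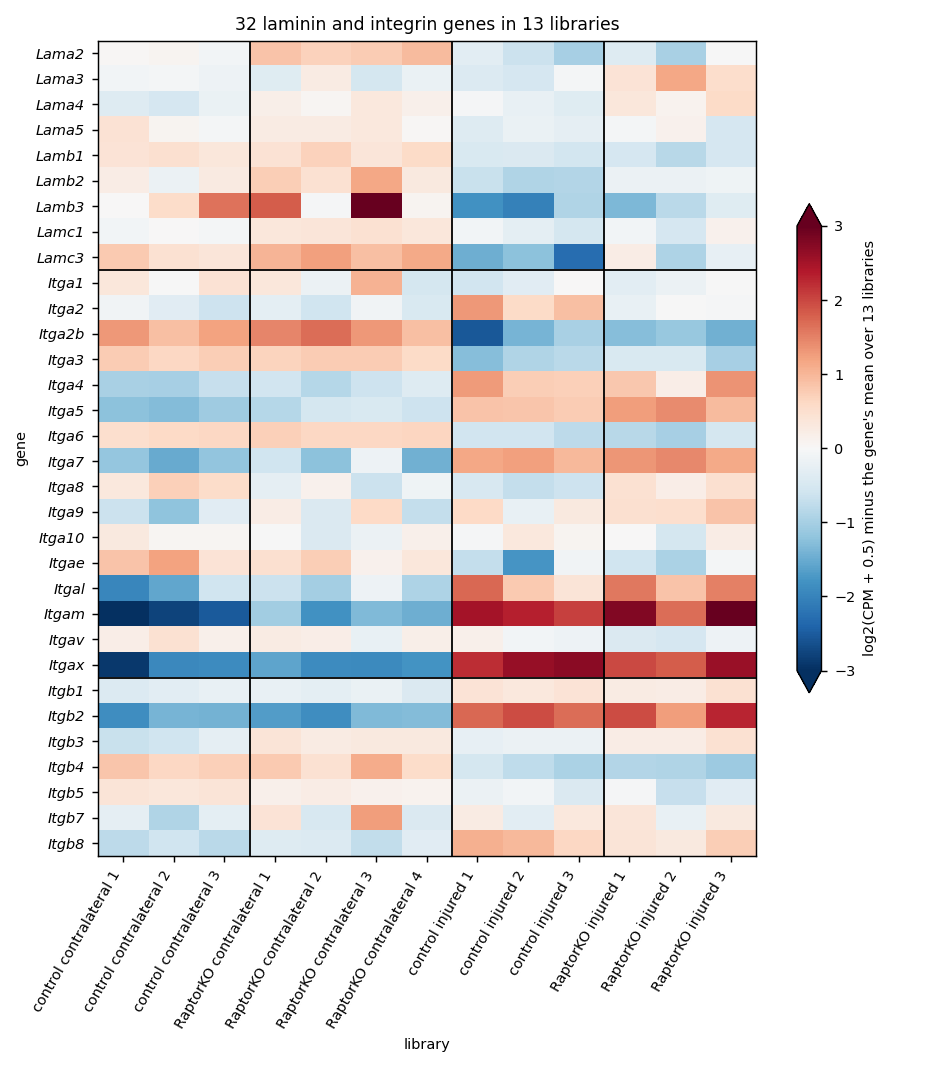
Levels of 32 laminin and integrin genes (vertical axis) in the 13 libraries (horizontal axis), as log2(CPM + 0.5) minus the mean of the gene over the 13 libraries. Black lines separate the 4 groups and the 3 families, and the leukocyte subunits Itgam, Itgax and Itgb2 show the strongest contrast between contralateral and injured nerves.

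Among the laminins of control contralateral nerves, the chains Lamb1, Lamc1 and Lamb2 were the most abundant per length. Per kilobase of merged exons, Lamb1 measured 72.7 ± 3.62 CPM (SD, n = 3), Lamc1 measured 70.3 ± 2.504 CPM and Lamb2 measured 43.9 ± 7.14 CPM. The ranges of Lamb1 and Lamc1 overlapped, and that of Lamb2 lay below both. By the length of the longest transcript in place of merged exons, Lamb1 (125 ± 6.21 CPM per kilobase) lay above Lamc1 (76.3 ± 2.72) without overlap. The alpha chains followed, with Lama2 at 18.2 ± 1.05, Lama4 at 18.1 ± 1.93 and Lama5 at 11.9 ± 2.17 CPM per kilobase. Lama2 encodes the alpha chain of the endoneurial SC basal lamina, Lama4 an alpha chain of SC and vessel basal laminae, and Lama5 an alpha chain of mature vessel and perineurial basal laminae. Per length of merged exons, Lama2 and Lama4 did not differ beyond their spread, and Lama5 lay below both. Lamc3, Lama3 and Lamb3 each stayed at or below 2.94 CPM per kilobase on average.

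As a share of all laminin alpha chain transcripts per length, Lama2 made up 36.98% ± 2.63 in control contralateral nerves, Lama4 36.7% ± 4.24 and Lama5 24.1% ± 3.48. In control injured nerves the shares were 27.9% ± 3.298 for Lama2 and 48.7% ± 0.697 for Lama4. The ranges of the injured and contralateral control nerves did not overlap for either chain. RaptorKO contralateral nerves had the highest Lama2 shares (41.8% to 48.2%), and RaptorKO injured nerves the highest Lama4 shares (51.4% to 55.96%). When the length of the longest transcript was used in place of the merged exons, the order of the leading chains changed, since Lama4 then held 45.1% ± 4.305 and Lama2 38.7% ± 2.99 of the alpha chain transcripts of control contralateral nerves. The gamma chains were almost entirely Lamc1, which made up 92.2% to 94.01% of the gamma chain transcripts in control contralateral nerves and 97.4% to 98.5% in control injured nerves.

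The integrins of control contralateral nerves were led by the laminin-binding subunits. Per kilobase, Itgb1 measured 143 ± 8.83 CPM, Itga6 111 ± 4.23 CPM and Itgb4 102 ± 7.11 CPM, where Itgb1 is the common beta subunit of most matrix receptors and Itga6 pairs with either of Itgb1 and Itgb4 to form laminin receptors. The ranges of Itga6 and Itgb4 overlapped, and that of Itgb1 lay above both. By the longest transcript the order was another, with Itga6 (232 ± 8.85 CPM per kilobase) above Itgb1 (153 ± 9.45) and Itgb4 (115 ± 8.04). Itgb5 (60.1 ± 1.15), Itgb8 (25.2 ± 1.92), Itgav (19.3 ± 2.23) and Itga7 (14.96 ± 1.95) followed, and all other subunits stayed below 10 CPM per kilobase. The order differed in control injured nerves, in which Itga7 (79.2 ± 6.96 CPM per kilobase) lay above Itga6 (47.4 ± 4.06) and Itgb8 (77.7 ± 12.1) above Itgb4 (36.97 ± 5.47), with no overlap in either pair.

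**Figure D2:**
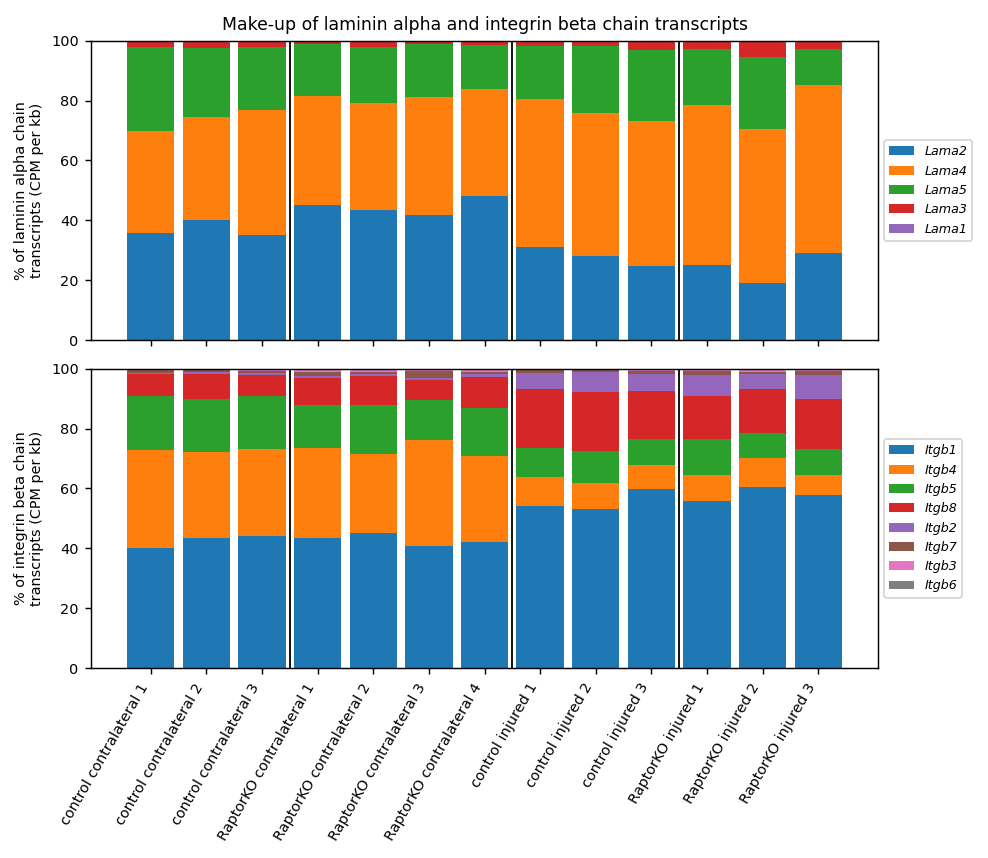
Share of each chain among the laminin alpha (top) and integrin beta (bottom) chain transcripts in the 13 libraries (horizontal axis), in percent of the summed CPM per kilobase of merged exons. Itgb4 made up 28.8% to 32.7% of the beta subunits in control contralateral nerves and 8.01% to 9.79% in control injured nerves, whereas the Itgb8 share was 6.88% to 8.27% and 16.1% to 19.9%.

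The first comparison asked how the injured distal nerve differs from the contralateral nerve in control mice. Of 30 members tested, 10 rose and 14 fell, while 65.3% of all tested genes were called, 32.4% higher and 32.9% lower. Of 9 laminins 6 fell, whereas 7 of 14 alpha subunits rose and 6 fell, and 3 of 7 beta subunits rose and 2 fell. The median log2 fold change was -0.67 over the laminins, 0.47 over the alpha subunits and 0.58 over the beta subunits, against -0.002 over all genes. Scaling by total counts without factors moved the median of all genes to 0.199. With that scaling 13 members rose and 11 fell, of the laminins 1 rose (Lama4) and 5 fell, and the split of all genes went from 4032 higher and 4087 lower to 5126 higher and 3176 lower. In 23 of the 30 members the injured and contralateral libraries did not overlap, against 70.9% of all genes tested.

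Among the laminins tested in this comparison, Lamc3, a minor gamma chain, showed the largest fall. Lamc3 measured 21.1, 16.9 and 15.7 CPM in control contralateral nerves and 4.04, 4.88 and 2.06 CPM in control injured nerves (log2 fold change -2.31 ± 0.28, adjusted p = 1.79e-05). All injured libraries lay below all contralateral libraries. Lamb3, which was too low to be tested here, held 21, 37 and 71 counts in contralateral and 2, 1 and 8 counts in injured nerves. Lamb2 went from 286, 217 and 298 CPM to 154, 131 and 133 CPM (log2 fold change -0.96 ± 0.12, adjusted p = 3.01e-05), and Lamb1 from 721, 757 and 685 CPM to 398, 400.2 and 373 CPM (log2 fold change -0.91 ± 0.097, adjusted p = 5.55e-06).

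Lama2 measured 302, 313 and 279 CPM in control contralateral and 235, 189 and 149 CPM in control injured nerves (log2 fold change -0.67 ± 0.14, adjusted p = 0.00144), and Lama5 measured 163, 127 and 116 CPM and 91.99, 105 and 100.0 CPM (log2 fold change -0.48 ± 0.12, adjusted p = 0.00386). These groups did not overlap either, and the call of Lama5 ended with total counts (adjusted p = 0.0547). Lama4 measured 213, 199 and 244 CPM and 275, 240.3 and 217 CPM and was not called (adjusted p = 0.322), although it was called higher with total counts (0.33, adjusted p = 0.0282) and without both libraries of control replicate 3 (0.30, adjusted p = 0.0378). Lamc1, the common gamma chain, measured 566, 605 and 574 CPM and 568, 492 and 417 CPM and was not called (adjusted p = 0.0651). It was called lower without control injured replicate 1 (-0.36, adjusted p = 0.0129). The lower laminins moved beside lower markers of cells with basal laminae, of which 6 of 8 SC, 4 of 6 endothelial (585 to 634 CPM summed in contralateral and 316 to 457 CPM in injured nerves), 5 of 6 pericyte and vascular smooth muscle (804 to 881 CPM and 422 to 547 CPM) and 4 of 4 perineurial genes were lower. Of 4 endoneurial fibroblast markers 1 was higher and 2 were lower, and the part of these cells was not tested.

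The laminin-binding integrins moved apart. Itga7, which pairs with Itgb1 as a laminin receptor, measured 131, 103 and 129 CPM in control contralateral nerves and 655, 689 and 579 CPM in control injured nerves, a 5.20-fold rise (log2 fold change 2.38 ± 0.12, adjusted p = 1.02e-08). Itga6 measured 956, 1012 and 1029 CPM and 449, 448 and 385 CPM, a 2.38-fold fall (log2 fold change -1.25 ± 0.10, adjusted p = 5.03e-07). All injured libraries were above the contralateral ones for Itga7 and below them for Itga6. Itgb4, the partner of Itga6 in the myelinating SC and in perineurial cells, measured 768, 668 and 712 CPM and 299.7, 255 and 223 CPM (log2 fold change -1.49 ± 0.12, adjusted p = 5.09e-07). Itgb1 measured 548, 585 and 620.0 CPM and 964, 904 and 973 CPM (log2 fold change 0.67 ± 0.098, adjusted p = 7.74e-05), and Itga3, another laminin-binding alpha subunit, measured 37.8, 34.4 and 37.04 CPM and 8.896, 11.6 and 12.4 CPM (log2 fold change -1.76 ± 0.15, adjusted p = 1.02e-06). Neither of the last 2 showed an overlap, with Itgb1 higher and Itga3 lower after injury. Itgb4 and Itga6 fell beside the SC marker list, of which 6 of 8 genes were lower and 2 were higher. They also fell beside the perineurial list without Itgb4, of which 4 of 4 were lower (329 to 455 CPM summed in contralateral and 125 to 153 CPM in injured nerves). The part of these cells in the result was not tested.

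The largest rises were those of leukocyte subunits. Itgax, the alpha subunit of complement receptor 4, held 1, 8 and 7 counts in control contralateral and 219, 286 and 290 counts in control injured nerves (log2 fold change 5.65 ± 0.45, adjusted p = 7.83e-08). Itgam, the alpha subunit of complement receptor 3, measured 1.28, 2.13 and 2.65 CPM and 101, 90.2 and 74.2 CPM (log2 fold change 5.43 ± 0.23, adjusted p = 7.34e-10), and Itgb2, the beta subunit that both share, measured 5.39, 7.61 and 7.55 CPM and 69.9, 83.1 and 67.9 CPM (log2 fold change 3.40 ± 0.16, adjusted p = 4e-09). Injured and contralateral libraries were far apart for all 3 genes. Exons of Itgam are shared over 3450 bases with Gm49368 on the same strand, which held no more than 7 counts in any library. Of 8 macrophage and monocyte markers, 8 rose, from a sum of 141 to 162 CPM to 2423 to 2998 CPM, and their part in these rises was not tested. Itgal and Itgae, subunits of lymphocytes, and Itgad, of macrophages, were not tested in this comparison, and Itgal held 0, 2 and 8 counts in control contralateral and 65, 31 and 21 counts in control injured nerves. Itgae went the other way, with 47, 69 and 31 counts in contralateral and 12, 3 and 20 counts in injured nerves.

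Of the other members that rose, Itga5, which forms the classical fibronectin receptor with Itgb1, measured 18.9, 18.01 and 21.3 CPM and 82.5, 80.9 and 77.6 CPM (log2 fold change 2.03 ± 0.11, adjusted p = 1.08e-08). Itga4, a subunit of receptors for VCAM and fibronectin, measured 15.4, 15.2 and 19.1 CPM and 75.8, 52.3 and 51.3 CPM (log2 fold change 1.83 ± 0.17, adjusted p = 1.68e-06). Itgb8, which with Itgav activates latent TGF-beta, rose from 269.6, 303 and 263 CPM to 961, 909 and 708 CPM (log2 fold change 1.60 ± 0.12, adjusted p = 4.06e-07). Itga2, a collagen- and laminin-binding subunit, and Itga9, a tenascin-binding subunit, rose by 1.32 and 0.97 on the log2 scale, so that 10 members rose in all. Among these genes every injured library lay above every contralateral library.

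Lower members outside the laminin receptors were Itga2b, Itga8, Itgb5, Itga1 and Itgav. Itga2b, the alpha subunit of the platelet fibrinogen receptor, measured 15.7, 11.95 and 14.8 CPM in control contralateral and 0.642, 2.03 and 2.85 CPM in control injured nerves (log2 fold change -2.97 ± 0.39, adjusted p = 2.84e-05), the largest fall of the 30 tested members. Of 4 other platelet markers, Gp9 held no count in any library, Gp1bb and Ppbp were near 0, and the sum of the 4 (3.602 to 4.51 CPM in contralateral and 11.3 to 19.9 CPM in injured control nerves) was almost entirely Pf4, so that platelets could not be followed by it. Itga8 is described with the interaction below. Itgb5, a vitronectin-binding subunit, fell by 0.62 on the log2 scale (adjusted p = 0.000162). Itga1, a collagen-binding subunit, was lower at log2 fold change -0.57 ± 0.17, adjusted p = 0.0119, and Itgav, the common alpha subunit of the vitronectin receptors, at log2 fold change -0.32 ± 0.12, adjusted p = 0.0258. Both had overlapping groups. The call of Itga1 ended without control injured replicate 1 (adjusted p = 0.0503). That of Itgav ended without control injured replicate 2 (0.103), control injured replicate 3 (0.0971) or control contralateral replicate 2 (0.108), or without both libraries of control replicate 3 (0.0552). In a model over all 13 libraries both calls ended (0.118 for Itga1 and 0.0663 for Itgav). They also ended with total counts (0.0742 for Itga1 and 0.359 for Itgav).

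Of the 30 members tested, 6 were not called, namely Lama3, Lama4, Lamc1, Itga10, Itgb3 and Itgb7. Itga10, a collagen-binding subunit of cartilage, measured 5.48, 4.58 and 4.61 CPM and 4.31, 5.62 and 4.72 CPM (adjusted p = 0.936). Itgb7, a lymphocyte beta subunit, was not called (adjusted p = 0.0788) but was called higher without control injured replicate 2 (0.78, adjusted p = 0.0289).

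**Figure D3:**
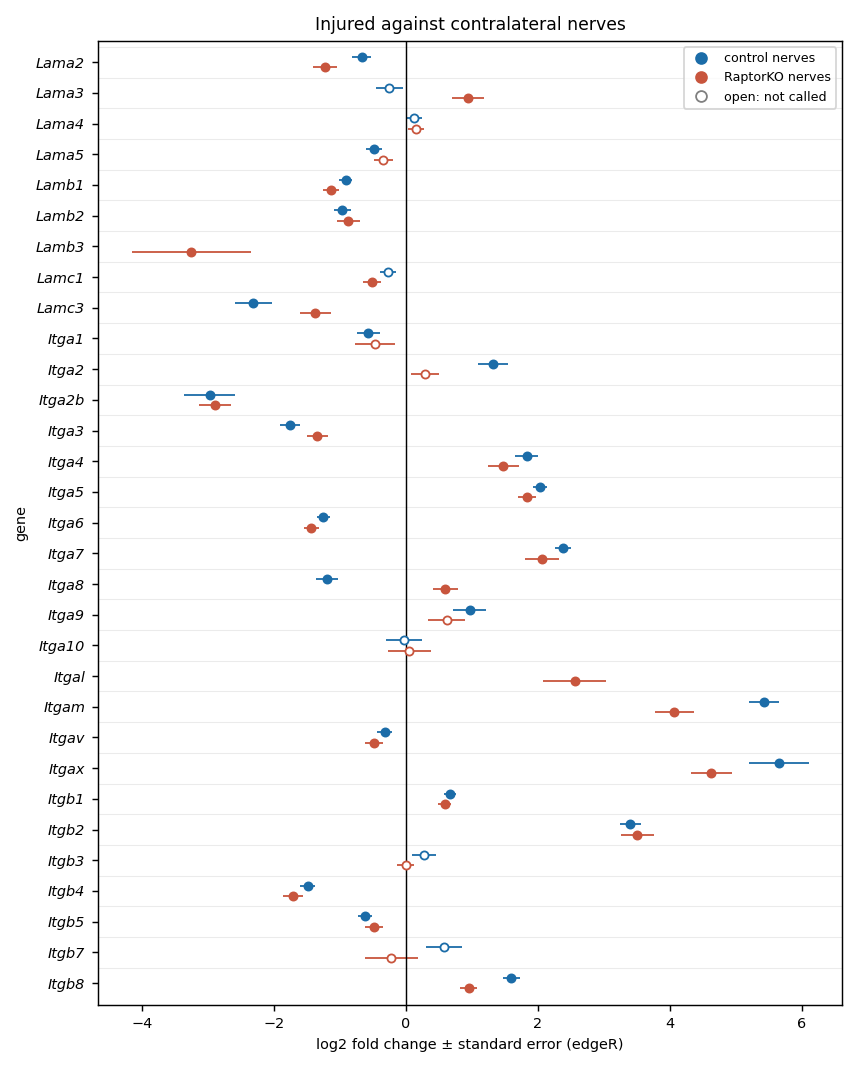
Log2 fold change with standard error between injured and contralateral nerves (horizontal axis) for the tested members other than 1 not reported by name (vertical axis), in control (blue) and RaptorKO nerves (red), with open symbols where the gene was not called. Itga8 lies at -1.19 in control and 0.6 in RaptorKO nerves, on opposite sides of 0.

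A 7-base AP-1 motif was looked for in the promoters, since c-Jun, an AP-1 factor, belongs to the injury response of SCs. RefSeq windows of 300 bases (250 before and 50 after a gene start, build GRCm38.p6) were at hand for 23 of the 37 members, in 26 windows. TGANTCA, which reads the same on both strands, was found in 3 of the 26 windows, 1 each of Itgax, Itga9 and Itga3, and in 7.81% of all 32851 windows of the table. The 30 bases around each match are shown in the direction of the gene, with the motif in capitals, because these are the members that carry it.
Itgax, chr7:128129482-128129511, plus strand, motif starting 56 bases before the listed start: ccccacctcctcTGAGTCAcgctgacaact
Itga9, chr9:118711712-118711741, plus strand, motif starting at base 39 from a listed start that lies inside the annotated gene: ttgatttgcagactggtcTGACTCAaggag
Itga3, chr11:95069169-95069198, minus strand, motif starting at base 13 from a listed start that lies inside the annotated gene: agggctggtgccTGAATCActggcttgctc
The matches are a description of these letters and not of binding. Itgax and Itga9 rose and Itga3 fell after injury in control nerves, and 14 members had no window in the table.

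The same comparison in RaptorKO nerves asked how the mutant nerve differs after injury. Of 32 members tested, 11 rose and 13 fell, while 58.9% of all tested genes were called, 30.5% higher and 28.5% lower. Of 10 laminins 1 rose and 7 fell, of 15 alpha subunits 7 rose and 4 fell, and of 7 beta subunits 3 rose and 2 fell. The median was -1.0 over the laminins against 0.028 over all genes, and total counts, which moved the latter to 0.186, gave 13 members higher and 11 lower with 2 laminins higher and 7 lower. With total counts the split of all genes went from 3811 higher and 3561 lower to 4708 higher and 2835 lower. The injured and contralateral libraries did not overlap in 23 of the 32 members, against 60.6% of all genes tested.

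The laminin receptors moved in the same direction as in control nerves. Itga7 measured 193, 125, 264 and 108 CPM in RaptorKO contralateral and 731, 797 and 649.8 CPM in RaptorKO injured nerves (log2 fold change 2.07 ± 0.26, adjusted p = 5.62e-05), Itga6 1096, 1024, 1028 and 1039 CPM and 373, 336 and 462 CPM (log2 fold change -1.43 ± 0.11, adjusted p = 2.59e-06), and Itgb4 739.7, 594, 931 and 633 CPM and 234, 229 and 202 CPM (log2 fold change -1.71 ± 0.15, adjusted p = 5.3e-06). Itgb1 rose to 865, 850.2 and 994 CPM (log2 fold change 0.59 ± 0.10, adjusted p = 0.000444) and Itgb8 to 602, 564 and 776 CPM (log2 fold change 0.95 ± 0.14, adjusted p = 0.000135). None of these genes had overlapping injured and contralateral libraries. The leukocyte subunits Itgax, Itgam and Itgb2 rose by 4.63, 4.07 and 3.51, and Itgal by 2.56 (adjusted p = 0.000776). Itgal held 7, 6, 13 and 4 counts in RaptorKO contralateral and 60, 38 and 55 counts in RaptorKO injured nerves. Itgax held 9, 9, 7 and 6 counts and 189, 191 and 286 counts. Both passed the count filter through injured libraries alone, and Itgal was tested here but not in control nerves. RaptorKO injured replicate 2 was the lowest of the 3 injured libraries for Itgam (57.3 CPM), Itgb2 (50.9 CPM) and Itga4 (35.8 CPM), and also had the lowest macrophage marker sum of the injured libraries (1530.0 CPM against 2423 to 3199 CPM).

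Among the laminins of RaptorKO nerves, Lama2 went from 532, 481, 504 and 573 CPM to 226, 151 and 292 CPM (log2 fold change -1.23 ± 0.18, adjusted p = 0.000238), Lamb1 from 729, 880.4, 697 and 806 CPM to 385, 307 and 380.1 CPM (log2 fold change -1.13 ± 0.12, adjusted p = 1.79e-05) and Lamb2 from 413, 337, 555 and 299.8 CPM to 219, 219 and 225 CPM (log2 fold change -0.87 ± 0.18, adjusted p = 0.00212). Lamc1 fell from 758, 773, 828 and 755 CPM to 566, 422 and 657 CPM (log2 fold change -0.51 ± 0.14, adjusted p = 0.00867). Each of these 4 genes had every injured library below every contralateral one. Lama3, an epithelial-type alpha chain, was the laminin that rose, from 9.54, 14.7, 8.43 and 10.6 CPM to 16.4, 28.2 and 18.1 CPM (log2 fold change 0.94 ± 0.24, adjusted p = 0.00658). Lamb3, another epithelial-type chain, fell with a wide error (log2 fold change -3.25 ± 0.91, adjusted p = 0.0107). Its contralateral libraries ranged from 1.84 to 22.2 CPM with the highest in RaptorKO contralateral replicate 3. Lamb3 held 75, 24, 232 and 16 counts in contralateral and 5, 11 and 15 counts in injured nerves, so it passed the count filter through contralateral libraries alone. Lama5 was not called (adjusted p = 0.062), but it was called lower without RaptorKO injured replicate 2 (0.017) or RaptorKO contralateral replicate 4 (0.0481). Likewise, Itga9 (adjusted p = 0.0771) was called higher without RaptorKO contralateral replicate 3 (0.00775).

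In uninjured nerves, the comparison of genotypes asked what the loss of Raptor changes before injury. Of 31 members tested, 7 were higher and 1 was lower in RaptorKO contralateral than in control contralateral nerves, while 10.2% of all tested genes were called, 4.49% higher and 5.68% lower. Of 10 laminins 4 were higher, and 9 of the 10 had a fold change above 0. Their median was 0.50, against 0.012 over all genes. The laminins called were Lama2, Lama4, Lamc1 and Lamc3, and the integrins were Itgam, Itgb3, Itga5 and, in the other direction, Itga8.

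Lama2 measured 302, 313 and 279 CPM in control contralateral and 532, 481, 504 and 573 CPM in RaptorKO contralateral nerves, 1.78-fold higher (log2 fold change 0.83 ± 0.085, adjusted p = 0.000218). Lama4 measured 213, 199 and 244 CPM and 318, 291, 349 and 313 CPM (log2 fold change 0.56 ± 0.092, adjusted p = 0.00435), and Lamc1 566, 605 and 574 CPM and 758, 773, 828 and 755 CPM (log2 fold change 0.44 ± 0.072, adjusted p = 0.00424). In these 3 chains, every RaptorKO library lay above every control library. They kept their calls whichever library was left out. The call of Lamc1 ended in a model over all 13 libraries (adjusted p = 0.0514).

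Lamc3 measured 21.1, 16.9 and 15.7 CPM and 25.1, 28.97, 23.1 and 27.2 CPM (log2 fold change 0.56 ± 0.14, adjusted p = 0.0337), without overlap. Its call ended without control contralateral replicate 2 (adjusted p = 0.136) or 3 (0.119), without RaptorKO contralateral replicate 1 (0.0588), 2 (0.0701) or 4 (0.0512), and in a model over all 13 libraries (0.192). Lamb2 measured 286, 217 and 298 CPM and 413, 337, 555 and 299.8 CPM, also without overlap, but it was not called (adjusted p = 0.0751). RaptorKO contralateral replicate 3 was the highest of its group for Lamb2, and the gene was called by edgeR's exact test (adjusted p = 0.0376), without a count filter (0.0189), in a model over all 13 libraries (0.0382) and without RaptorKO contralateral replicate 4 (0.72, adjusted p = 0.03). Lamb1 and Lama5 had overlapping groups and adjusted p-values of 0.464 and 0.804.

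Of 4 endoneurial fibroblast markers, 3 were higher in RaptorKO contralateral nerves, with a sum of 3961 to 4724 CPM in control and 6217 to 8672 CPM in RaptorKO libraries. Of 8 SC markers, 1 was higher and 3 were lower. These lists moved beside the laminins, and their part in the laminin differences was not tested.

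Among the integrins, Itgb3, the beta subunit of the vitronectin and fibrinogen receptors, measured 10.3, 10.97 and 13.9 CPM in control contralateral and 22.1, 19.9, 20.8 and 20.6 CPM in RaptorKO contralateral nerves (log2 fold change 0.85 ± 0.14, adjusted p = 0.00442), and kept its call whichever library was left out. Itga5 measured 18.9, 18.01 and 21.3 CPM and 24.6, 31.04, 33.03 and 29.2 CPM (log2 fold change 0.62 ± 0.13, adjusted p = 0.0154), and Itgam 1.28, 2.13 and 2.65 CPM and 8.36, 4.67, 6.703 and 6.08 CPM (log2 fold change 1.69 ± 0.33, adjusted p = 0.0112). In all 3 genes the RaptorKO libraries lay above the control libraries. Itgam held 14, 26 and 27 counts in control and 78, 61, 70 and 47 counts in RaptorKO contralateral nerves. It thus passed the count filter only through the group in which it was higher, and its call is not independent of that filter. Without control contralateral replicate 1 or 2, the adjusted p rose to 0.0665 or 0.0797 for Itga5 and to 0.0501 or 0.0505 for Itgam. Of 6 macrophage and monocyte markers tested, 3 were higher, with a sum of 141 to 162 CPM in control and 222 to 291 CPM in RaptorKO nerves, whereas Itgb2 measured 5.39, 7.61 and 7.55 CPM and 6.21, 5.36, 8.04 and 8.28 CPM (adjusted p = 0.95). Of 5 mast cell markers 2 were higher (11.96 to 58.4 CPM summed in control and 79.95 to 138 CPM in RaptorKO nerves), and of 4 erythrocyte markers tested 2 were higher, and their part in the integrin differences was not tested.

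The laminin receptors were not called in uninjured nerves. Itga6 measured 956, 1012 and 1029 CPM in control and 1096, 1024, 1028 and 1039 CPM in RaptorKO contralateral nerves (adjusted p = 0.51), Itgb1 548, 585 and 620.0 CPM and 626, 596, 629.8 and 538 CPM (0.761), and Itgb4 768, 668 and 712 CPM and 739.7, 594, 931 and 633 CPM (0.916). Itga7 measured 131, 103 and 129 CPM and 193, 125, 264 and 108 CPM (0.236). In all 4 genes the groups overlapped, and RaptorKO contralateral replicate 3 was the highest library of its group for Itgb1, Itgb4 and Itga7, as it was for Itga1, Itga9, Itgb7, Lama4, Lamb2, Lamb3 and Lamc1 among others. Itgb8 was not called (adjusted p = 0.12), but it was called higher without that library (0.37, adjusted p = 0.0259). Of the 31 members tested, the groups did not overlap in 10, against 23.7% of all genes tested.

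**Figure D4:**
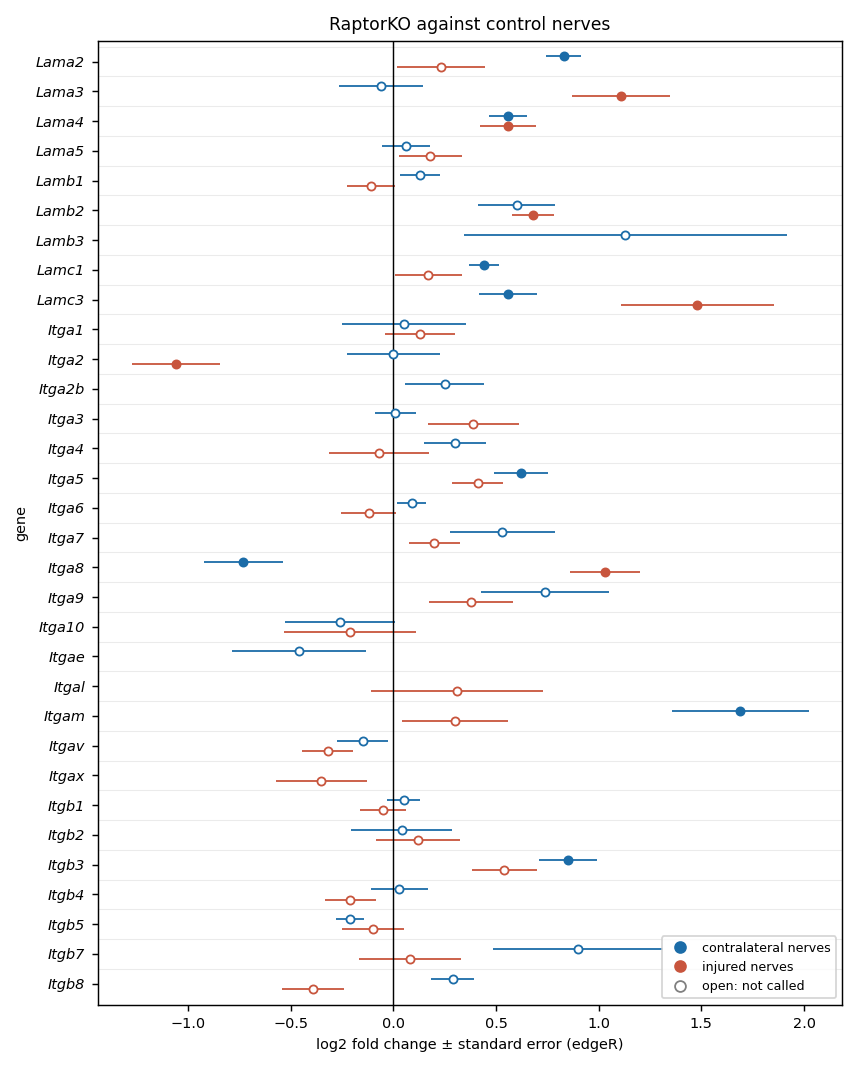
Log2 fold change with standard error between RaptorKO and control nerves (horizontal axis) for the tested members other than 1 not reported by name (vertical axis), in contralateral (blue) and injured nerves (red), with open symbols where the gene was not called. Lama4 lies at 0.56 in contralateral and 0.56 in injured nerves, and Itga8 lies at -0.73 and 1.03.

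In injured nerves, the comparison of genotypes asked what the loss of Raptor changes at 5 dpc. Of 30 members tested, 5 were higher and 1 was lower in RaptorKO than in control injured nerves, while 8.54% of all tested genes were called, 4.09% higher and 4.44% lower. Of 9 laminins 4 were higher (Lama3, Lama4, Lamb2 and Lamc3), and their median was 0.56 against 0.001 over all genes. Of 14 alpha subunits Itga8 was higher and Itga2 was lower. None of 7 beta subunits was called by edgeR's quasi-likelihood test on the injured libraries, while 2 of them had an unadjusted p below 0.05. Of these 7, 1 (Itgb3) was called by edgeR's exact test and by the quasi-likelihood test in a model over all 13 libraries, and none by DESeq2.

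Lamb2, the beta chain of mature basal laminae, measured 154, 131 and 133 CPM in control injured and 219, 219 and 225 CPM in RaptorKO injured nerves, 1.60-fold higher (log2 fold change 0.68 ± 0.10, adjusted p = 0.00289). As a share of the beta chain transcripts per length, it made up 34.8% to 38.7% in control and 48.02% to 53.6% in RaptorKO injured nerves, with the rest almost entirely Lamb1. Both the level and the share were without overlap, and the call of the level was kept whichever library was left out. Lama3 measured 9.17, 8.56 and 11.7 CPM and 16.4, 28.2 and 18.1 CPM (log2 fold change 1.11 ± 0.24, adjusted p = 0.0158), with its highest value in RaptorKO injured replicate 2. Its call ended without control injured replicate 1 (adjusted p = 0.0559) or 2 (0.0738).

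Lama4 measured 275, 240.3 and 217 CPM in control injured and 352, 299 and 414 CPM in RaptorKO injured nerves (log2 fold change 0.56 ± 0.14, adjusted p = 0.0288), and Lamc3 4.04, 4.88 and 2.06 CPM and 14.2, 6.16 and 10.1 CPM (log2 fold change 1.48 ± 0.37, adjusted p = 0.033). Neither gene had overlapping groups. Lamc3 held 44, 53 and 21 counts in control injured and 159, 78 and 110 counts in RaptorKO injured nerves, so it passed the count filter through the latter. Over 15 alternatives the log2 fold change kept its sign and lay at 0.43 to 0.66 for Lama4 and 1.15 to 1.74 for Lamc3. Both calls nevertheless ended when any 1 of several libraries was left out. That of Lama4 ended without control injured replicate 2 (adjusted p = 0.111) or 3 (0.118) or without RaptorKO injured replicate 1 (0.0947) or 3 (0.0722). That of Lamc3 ended without any one of the control injured replicates (0.0754, 0.0552 and 0.107) or without RaptorKO injured replicate 1 (0.166) or 3 (0.0615). Lama2, which differed between genotypes in uninjured nerves, measured 235, 189 and 149 CPM and 226, 151 and 292 CPM after injury, with overlapping groups (adjusted p = 0.612).

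Itga2 measured 24.1, 14.4 and 18.2 CPM in control injured and 8.12, 9.39 and 9.28 CPM in RaptorKO injured nerves, 2.09-fold lower in the latter (log2 fold change -1.06 ± 0.21, adjusted p = 0.0122). The contralateral groups, in comparison, ranged from 5.98 to 8.77 CPM in control and from 6.05 to 8.81 CPM in RaptorKO nerves. The call ended without control injured replicate 1 (adjusted p = 0.051) or RaptorKO injured replicate 1 (0.0578). Itga5 and Itgb3 had all RaptorKO injured libraries above the control injured ones, at 108, 121 and 88.4 CPM against 82.5, 80.9 and 77.6 CPM and at 19.7, 19.7 and 23.3 CPM against 14.03, 14.7 and 14.8 CPM, but were not called (adjusted p = 0.0693 and 0.0619). DESeq2 called Itga5 (adjusted p = 0.0413), and without RaptorKO injured replicate 3 edgeR did so too (0.53, adjusted p = 0.0146). Itgb3 was called by edgeR's exact test (adjusted p = 0.0399) and by edgeR in a model over all 13 libraries (0.52, adjusted p = 0.031). Itgam was not called (adjusted p = 0.585), but it was called higher without RaptorKO injured replicate 2 (0.60, adjusted p = 0.0149).

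The laminin receptors Itga6, Itga7, Itgb1 and Itgb4 were not called in injured nerves, with adjusted p-values of 0.694, 0.413, 0.852 and 0.388 and overlapping groups. The groups did not overlap in 8 of the 30 members, against 26.2% of all genes tested. Of 6 endothelial markers, 6 were higher in RaptorKO injured nerves, with a sum of 316 to 457 CPM in control and 636 to 946 CPM in RaptorKO libraries. Of 6 pericyte and vascular smooth muscle markers 5 were higher (422 to 547 CPM and 804 to 1167 CPM), of 5 mast cell markers 4 (8.47 to 52.2 CPM and 102 to 194 CPM), of 4 endoneurial fibroblast markers 2 (3271 to 5016 CPM and 4668 to 7393 CPM), of 3 erythrocyte markers tested 3 (5.96 to 24.9 CPM and 46.5 to 75.8 CPM), and of 3 perineurial markers tested 1. RaptorKO injured replicate 2, the highest library for Lama3, was also the highest of the injured libraries for the endothelial and the pericyte sum. The same library was the lowest of the RaptorKO injured group for Lama4 (299 CPM), Lamc3 (6.16 CPM) and Itga8 (18.4 CPM). For Lamb2 it lay between the other RaptorKO injured libraries. The sum of 8 macrophage and monocyte markers was 2423 to 2998 CPM and 1530.0 to 3199 CPM. Of 8 SC markers 4 were lower (4178 to 4779 CPM and 2990.4 to 3720.0 CPM), beside the lower Itga2. The lists that were higher moved beside Lama3, Lama4, Lamb2, Lamc3 and Itga8, and the part of all these lists in the differences was not tested.

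**Figure D5:**
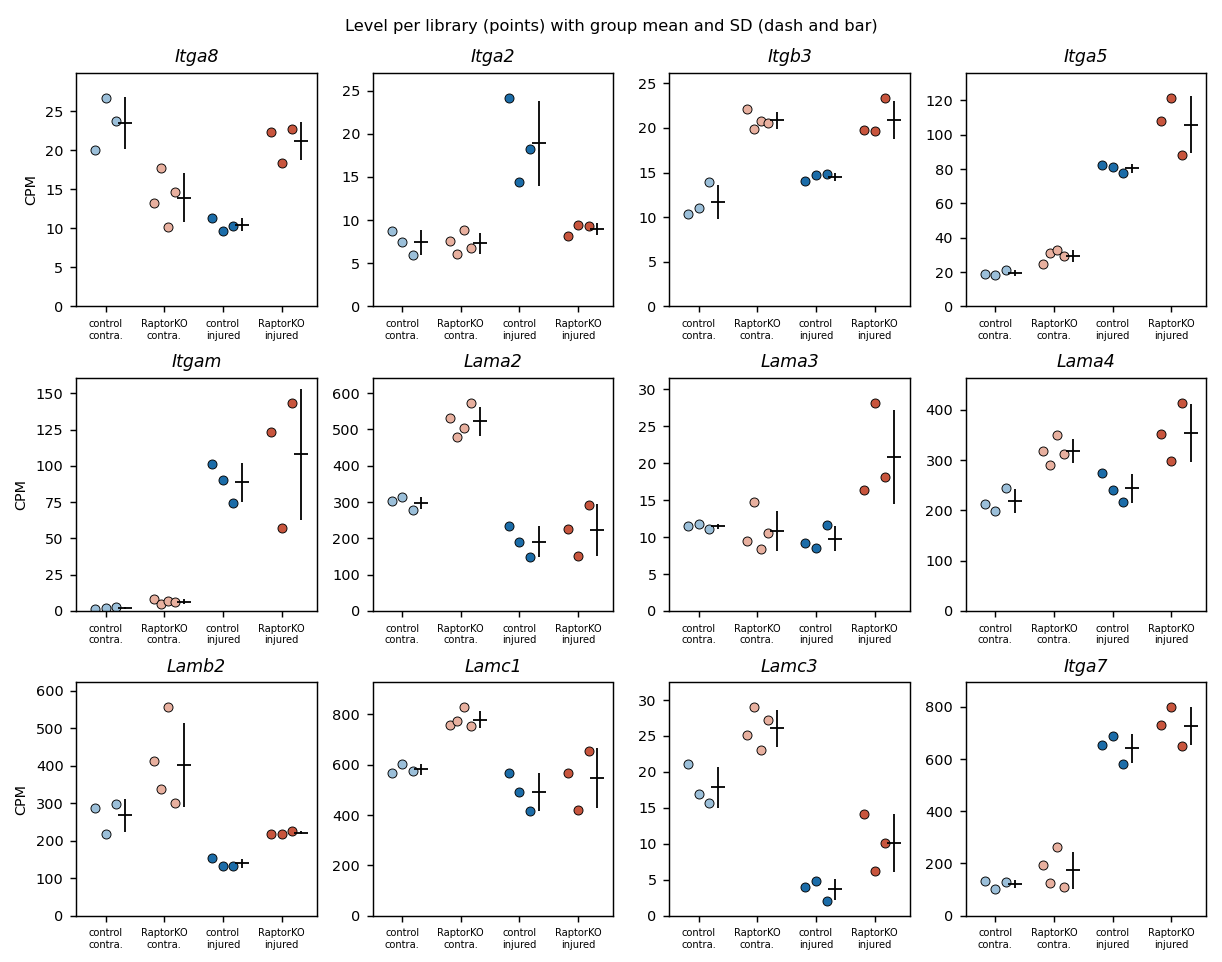
Levels in CPM (vertical axes, starting at 0) of 12 laminin and integrin genes in the 4 groups (horizontal axes), with a point per library and the group mean and SD as a dash and bar beside them. Itga8 is the panel in which the genotypes are without overlap in both states and in opposite order.

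The test of whether the injury response differed between genotypes, the interaction of genotype and injury, called 1 of 33 members, while 2.47% of all tested genes were called, 1.07% higher and 1.41% lower. The member was Itga8, the alpha subunit that pairs with Itgb1 as a receptor of nephronectin and other RGD-containing ligands, in vessels and other mesenchymal cells. Itga8 measured 20.01, 26.7 and 23.8 CPM in control contralateral nerves, 13.3, 17.7, 10.1 and 14.6 CPM in RaptorKO contralateral nerves, 11.4, 9.67 and 10.3 CPM in control injured nerves and 22.4, 18.4 and 22.8 CPM in RaptorKO injured nerves. It thus fell after injury in control nerves (log2 fold change -1.19 ± 0.17, adjusted p = 6.21e-05) and rose in RaptorKO nerves (log2 fold change 0.60 ± 0.19, adjusted p = 0.0211), with no overlap of the libraries in either comparison. Between genotypes, it was lower in RaptorKO contralateral nerves (log2 fold change -0.73 ± 0.19, adjusted p = 0.0358) and higher in RaptorKO injured nerves (log2 fold change 1.03 ± 0.17, adjusted p = 0.00454), again with no overlap.

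The difference between the 2 injury responses was 1.77 ± 0.26 on the log2 scale (adjusted p = 0.00305), and its call was kept in all 21 alternatives, among which the adjusted p ranged from 6.34e-07 to 0.0251 and the value from 1.58 to 1.91. Of its 4 parts, the fall in control nerves and the higher level in RaptorKO injured nerves were also called in every alternative. The lower level in RaptorKO contralateral nerves lost its call without control contralateral replicate 1 (adjusted p = 0.0588), 2 (0.156) or 3 (0.0997) or RaptorKO contralateral replicate 1 (0.0874) or 3 (0.0567). The rise in RaptorKO nerves lost it without RaptorKO injured replicate 1 (0.0738) or 3 (0.0678) or RaptorKO contralateral replicate 1 (0.05) or 3 (0.0512), or without both libraries of RaptorKO replicate 3 (0.119). E030013I19Rik, whose exons share 372 bases with those of Itga8 on the other strand, held no more than 10 counts in any library. Endothelial markers were called in the interaction for 3 of 6 genes and pericyte and vascular smooth muscle markers for 1 of 6, all higher, while 3 of 8 SC markers and 1 of 8 macrophage and monocyte markers were called lower, and their part in the Itga8 result was not tested.

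Of the other 32 members in the interaction, Lama3 (1.17 ± 0.32, adjusted p = 0.0745), Itga2 (-1.06 ± 0.30, adjusted p = 0.0883) and Itgb8 (-0.68 ± 0.20, adjusted p = 0.0936) came nearest to a call. Lama3 was called without RaptorKO contralateral replicate 2 (adjusted p = 0.0289), and Itgb8 without control injured replicate 3 (0.048) or RaptorKO injured replicate 3 (0.0373). DESeq2 called these 3 genes and Itgam (-1.38 ± 0.47 in edgeR, where the adjusted p was 0.153) beside Itga8. The laminin chains Lama2, Lama4, Lamb1, Lamb2 and Lamc1 were not called in the interaction, with adjusted p-values of 0.323, 0.999, 0.549, 0.938 and 0.616. A genotype difference in one state of the nerve only, such as that of Lama2 in contralateral nerves, is therefore not shown to differ from that in the other state.

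Of the 37 members, 4 did not reach 50 counts in 2 libraries. Itgb6, an epithelial subunit, held 0 counts in all 13 libraries, which allows up to 3 counts in a library. Lama1, the embryonic alpha chain, held at most 8 counts and Itgad at most 11 counts. Itga11, a collagen-binding subunit of fibroblasts, held 84 counts in RaptorKO contralateral replicate 2 and 2 to 49 counts elsewhere. Just inside the limit were Itgae, which reached 50 counts in 2 libraries (69 and 51 counts), and Itgal and Lamb3, which reached it in 3 libraries each. Itgae measured 4.29, 5.65 and 3.04 CPM in control contralateral and 3.21, 3.91, 2.39 and 2.85 CPM in RaptorKO contralateral nerves (adjusted p = 0.42). Lamb3 measured 1.92, 3.03 and 6.96 CPM and 8.04, 1.84, 22.2 and 2.07 CPM in these groups, so that 1 library, RaptorKO contralateral replicate 3, set the mean (adjusted p = 0.429). Some members share exon bases with genes on the other strand, and although the library kit kept the strand, the strand setting of the counting is not stated, and how reads of such pairs were divided was not tested. The partners of Itga4 (Cerkl) and Itgb4 (B230344G16Rik) held at most 27 and 20 counts in a library, and Mettl7b, which shares 9 bases with Itga7, at most 81 counts.

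Basement membrane components and laminin-binding proteins other than integrins, a list of 17 genes, changed in both directions. For this list and those that follow, 65.3% of all tested genes were called after injury in control and 58.9% in RaptorKO nerves. Between genotypes 10.2% were called in contralateral and 8.54% in injured nerves, and in the interaction 2.47%. In control nerves 7 rose and 8 fell after injury, led by Cd44 (3.97 on the log2 scale), Col18a1 (2.99) and Sparc (-1.5), and in RaptorKO nerves 3 rose and 8 fell, led by Cd44 (3.3), Col18a1 (1.93) and Col4a1 (-1.31). In RaptorKO contralateral nerves 7 were higher and 1 was lower than in control contralateral nerves, with a median of 0.39 against 0.012 over all genes. The 3 leading genes were Rpsa (0.66 ± 0.079), Col15a1 (0.91 ± 0.12) and Nid1 (0.54 ± 0.085), which encode a laminin-binding ribosomal protein, a basement membrane collagen and the nidogen that links laminin to type IV collagen. In RaptorKO injured nerves 2 were lower, Col18a1 (-0.62) and Nid2 (-0.58), and in the interaction Col18a1 (-1.08), Nid2 (-0.96) and Cd44 (-0.69) were called, all lower.

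The dystroglycan complex, the other laminin receptor of SCs, and its myelin partners made up a list of 22 genes, of which 19 were tested. After injury 1 rose and 13 fell in control nerves, and 1 rose and 14 fell in RaptorKO nerves. Of all tested genes, 32.4% rose and 32.9% fell in control nerves, and 30.5% rose and 28.5% fell in RaptorKO nerves. The leading genes were Drp2 (-6.52 in control and -5.65 in RaptorKO nerves) and Prx (-5.71 and -5.59), which organize the appositions of the myelin sheath, with Utrn next in control (-2.17) and Sgcd in RaptorKO nerves (-2.74). Between genotypes, Dtna (-0.44) and Dmd (-0.35) were lower in RaptorKO contralateral nerves. In injured nerves 1 was higher, Drp2 (0.47), and 4 were lower, among them Sgcb (-0.47) and Sntb1 (-0.95), and Drp2 was called in the interaction (0.85).

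The list of integrin activators and adhesion effectors held 36 symbols. Of these, 35 matched a gene of the series and 33 were tested after injury. In control nerves 17 rose and 13 fell, and in RaptorKO nerves 16 rose and 13 fell, while 65.3% and 58.9% of all tested genes were called. The tetraspanin Cd9 (-2.42 and -2.27) and the adhesion adaptor Tns1 (-3.14 and -2.43) led in both, with Cd82 (-1.81) in control and Parvb (2.27) in RaptorKO nerves. Cd82 was the 1 gene of 32 that differed between genotypes in contralateral nerves (-0.29). In injured nerves 3 were higher and 1 was lower in RaptorKO mice, led by the talin Tln2 (-0.7), Tns1 (0.65) and Lims2 (0.71), and the same 3 genes were called in the interaction (-0.98, 0.69 and 1.08).

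Of 24 symbols of integrin ligands other than laminins, 23 matched a gene of the series and 17 were tested. After injury 10 rose and 6 fell in control nerves and 9 rose and 5 fell in RaptorKO nerves. Of all tested genes, 65.3% and 58.9% were called in these comparisons. Tnc, the tenascin bound by receptors with Itga9 or Itga8, rose by 4.77 in control and 3.35 in RaptorKO nerves, and Cdh1, the E-cadherin of SC junctions, fell by 5.21 and 4.67. Tgfbi (1.75) was next in control and Ccn1 (-1.8) in RaptorKO nerves. In contralateral nerves 1 ligand was higher in RaptorKO mice, Tgfbi (0.78), and 2 were lower, Cdh1 (-0.49) and Adam23 (-0.38). In injured nerves 3 were higher and 4 were lower, led by Tnc (-1.64 ± 0.11), Adam23 (-1.40 ± 0.13) and Postn (-1.59 ± 0.19), all lower. In the interaction Tnc (-1.44), Adam23 (-1.02) and Ccn2 (1.07) were called.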

How the data were processed

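RNA of 13 sciatic nerves was sequenced from stranded libraries, in 4 groups taken from the sample labels. Per the submitters' processing notes, Trimmomatic, the genome GRCm38 and RSEM 1.2.22 were used. The annotation release and the strand setting are not given in the sources used here. The values deposited by the authors are expected counts per gene, not scaled for depth, for which RSEM divides a read with several matches among genes. Here they were rounded to the nearest whole number. Library totals ranged from 8200458 to 13581775 counts, so that genes with few counts carry a large counting error.

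Gene symbols, exon lengths and overlaps came from GENCODE M21 (GRCm38), which matched 40634 of 40787 gene IDs, and promoter windows from RefSeq. Genes that reached 50 counts in at least 2 libraries of a comparison were tested in edgeR 4.0.16 (R 4.3.3, limma 3.58.1) with TMM factors and the quasi-likelihood test. A gene could pass this count filter through 1 group alone, and its higher level in that group was then a condition of the test. Itga2b, for example, passed through contralateral libraries alone in both injury comparisons. P-values were adjusted across every tested gene after Benjamini and Hochberg. A call needed an adjusted p under 0.05 and a fold change over 1.2. Only the libraries of a comparison entered its model, and all 13 entered the interaction. Per the study's figure legend the libraries of a group came from different mice. The paper calls the contralateral nerves the corresponding ones, but whether same-numbered injured and contralateral libraries share a mouse is not stated. If they do, the tests after injury and of the interaction treated both nerves of a mouse as independent. No test was made over the members as a list. Members, pathway lists and marker lists were chosen with earlier results of these data known. Given in full were the members called between genotypes or in the interaction, the major laminin and laminin receptor chains, and the 5 largest changes in each direction after injury of control nerves among members without overlap. Of each pathway list, up to 3 called genes with the smallest p per comparison were named. Of the members, 1 is counted but not reported by name here, nor is 1 gene of a pathway list. Markers of 14 cell types, without members of the families, were summed in CPM. Alternatives were DESeq2 1.42.0, RLE size factors, edgeR's exact test, other count filters, 1 model over all libraries, an adjusted p below 0.01, a replicate block, leaving out each library, and, chosen after seeing the data, total counts without factors and leaving out both libraries of replicate 3. The test was checked on simulated counts. Plots were made in Python 3.11.15 (matplotlib 3.10.9).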

Additional observations from a re-analysis of the deposited data

Results flagged for a closer look

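Itga8 stood out because its injury response differed between the genotypes, with a difference of 1.77 on the log2 scale (edgeR interaction, adjusted p = 0.00305). All 3 control injured libraries lay below all 3 control contralateral libraries, and all 3 RaptorKO injured libraries lay above all 4 RaptorKO contralateral libraries. In RaptorKO contralateral nerves, the one group with 4 libraries, none of 33 members had a library whose gap to the next one exceeded Dixon's limit, a rule by which about 1 in 20 groups would stand out by chance.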

How the results depend on the processing

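Of 63 calls of a member in a comparison, 47 were kept in every alternative, 16 were lost in at least 1, and none changed direction. Kept throughout were 21 of 24 calls after injury in control nerves, 20 of 24 in RaptorKO nerves, 3 of 8 between genotypes in contralateral nerves, 2 of 6 in injured nerves and the 1 call in the interaction. Another 21 pairs of member and comparison were called in at least 1 alternative, and of 72 pairs called under no setting 28 changed sign in at least 1.

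The number of members called after injury stayed between 22 and 30 in control nerves (24 as reported) and between 20 and 27 in RaptorKO nerves (24 as reported) under the alternatives tried, with 25 and 27 in the replicate block. Over all genes the block called 3975 higher and 4051 lower in control nerves, against 4032 and 4087 as reported. In RaptorKO nerves it called 3693 higher and 3546 lower, against 3811 and 3561. In contralateral nerves 8 members were called between genotypes, 4 with an adjusted p below 0.01, 13 with the replicate block, and 4 to 8 when 1 library was left out. The calls over all genes moved too, from 533 higher and 675 lower to 881 higher and 937 lower with the replicate block. They were 246 higher and 278 lower without control contralateral replicate 2, and 598 and 820 without RaptorKO contralateral replicate 4. In injured nerves 6 members were called, 2 with an adjusted p below 0.01, and 3 to 7 when 1 library was left out. All genes there gave 493 higher and 535 lower as reported. Without control injured replicate 2 they gave 176 and 271, and without RaptorKO injured replicate 2 they gave 484 and 515. In the interaction 1 member was called, 5 with DESeq2, 4 without a count filter, 3 with the replicate block, 1 to 2 when 1 library was left out, and 2 without both libraries of RaptorKO replicate 3. Its calls over all genes went from 137 higher and 181 lower to 245 and 353 with DESeq2. They were 191 and 255 without a count filter, and 160 and 192 with the replicate block. The cause of these changes was not tested.

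The replicate numbers were not taken as pairs. Xist counts were high only in libraries that share a number, the contralateral (15017) and the injured (14462) library of control replicate 3. Same-numbered injured and contralateral libraries had correlations of their deviations of 0.067 to 0.305 in control and -0.024 to 0.211 in RaptorKO nerves. Differently numbered ones had -0.225 to 0.136 and -0.298 to 0.137. Same-numbered control and RaptorKO libraries, which are of different mice, had 0.072 to 0.301 in contralateral and -0.05 to 0.027 in injured nerves. Not every same-numbered pair exceeded 0.1 in any comparison. The replicate block joined same-numbered injured and contralateral libraries in the injury comparisons and the interaction. In the genotype comparisons it joined same-numbered control and RaptorKO libraries, which are of different mice. RaptorKO contralateral replicate 4 was left out of the block. With the replicate block Lama4 (adjusted p = 0.0579) and Lamc3 (0.0581) lost their call in injured nerves and 11 other results gained one, among which Lamb2, Itga7, Itga9 and Itgb7 were higher in RaptorKO contralateral nerves. Of these, Lamb2 was also called without a block when RaptorKO contralateral replicate 4 was left out (adjusted p = 0.03). By the longest transcript in place of merged exons, the share of Lama5 among alpha chains in control contralateral nerves was 14.8% ± 2.46 in place of 24.1% ± 3.48. Members under the count limit were not tested in the comparison concerned.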
